A study of Mus musculus with 6 samples.

Results

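Neuropeptide Y (Npy), 3 of its receptors (Npy1r, Npy2r and Npy5r) and the peptidase Dpp4 were read in mouse bone marrow. These are 5 genes of 18193 measured, read from 10 probe sets of 45037 on the array, every probe set to which the platform annotation gives exactly 1 symbol that is one of these 5 genes. Npy and Npy2r have 1 probe set each, Npy1r and Npy5r have 2 each, and Dpp4 has 4. A probe set is a group of short oligonucleotides on an Affymetrix array whose signals are summarised as a single log2 expression value. The marrow came from adult female F1 mice of 2 outcrosses, (AKR/J x FVB/NJ)F1, called the AKR cross here, and (DBA/2J x FVB/NJ)F1, called the DBA cross here, with 3 arrays in each group. Both groups carry the FVB/NJ genome as one parental set and differ in the other, no group was treated, and the mice were killed under Avertin anaesthesia before the tissue was snap frozen. The study asked which transcripts differ at baseline between these genotypes. The large difference in Npy was known when these genes were chosen, so the differences of the 5 genes between the crosses are given as a description, without a test.

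Neuropeptide Y is a secreted peptide of sympathetic and central neurons that signals through receptors coupled to inhibitory G proteins. In rodents it has also been found in megakaryocytes and platelets, and sympathetic nerve fibres that enter the bone marrow carry it. The Y1, Y2 and Y5 receptors bind the full-length peptide, and dipeptidyl peptidase 4, the product of Dpp4, removes its N-terminal dipeptide, which turns it into a form that no longer activates the Y1 receptor well but still activates Y2 and Y5. Dpp4 is also known as CD26, a surface protein of T cells.

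The promoter sequences of Npy and Dpp4 are shown because these are the members with a probe set past the limma threshold used below. They are RefSeq sequences of build GRCm38.p6, the C57BL/6J reference and not the strains crossed here, and each runs from 250 bases before an annotated start site to 50 bases after it. Npy lies at chr6:49822460-49822759 on the + strand and Dpp4 at chr2:62412182-62412481 on the - strand. Capitals mark every match, on either strand, to the motifs searched, which were ATAAAA for a TATA-like element, GGGCGG for a GC box, AGATAA or its variant TGATAA for a GATA factor, GGAAGT for an ETS factor and TGACGTCA for a cyclic AMP response element.
Npy: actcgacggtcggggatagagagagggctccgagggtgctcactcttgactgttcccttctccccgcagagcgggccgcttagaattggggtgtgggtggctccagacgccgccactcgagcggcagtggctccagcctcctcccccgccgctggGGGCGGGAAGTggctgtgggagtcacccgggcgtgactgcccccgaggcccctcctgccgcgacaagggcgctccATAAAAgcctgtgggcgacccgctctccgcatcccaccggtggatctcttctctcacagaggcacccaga
Dpp4: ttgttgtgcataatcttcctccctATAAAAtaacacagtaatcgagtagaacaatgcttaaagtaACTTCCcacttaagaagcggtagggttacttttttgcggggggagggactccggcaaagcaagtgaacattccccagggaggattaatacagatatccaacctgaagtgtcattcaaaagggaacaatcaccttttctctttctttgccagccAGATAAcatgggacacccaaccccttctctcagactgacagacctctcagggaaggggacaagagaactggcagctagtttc
In the Npy window ATAAAA begins 20 bases before the start site, GGGCGG 95 bases and GGAAGT 90 bases before it. The last of these overlaps the GC box. In the Dpp4 window ATAAAA begins 226 bases and AGATAA 32 bases before the start site, and GGAAGT matches on the opposite strand 185 bases before it. Of 32851 promoters of this length in the table, 18.5% hold the TATA-like element, 35.7% the GC box, 11.2% AGATAA, 9.05% its variant, 23.8% the ETS motif and 1.79% the cyclic AMP response element. The windows of Npy1r and Npy5r hold no match to these motifs, and that of Npy2r holds GGGCGG once and AGATAA once. The G and C content was 68% for Npy and 45.3% for Dpp4, with a median of 52.7% over all promoters. Nothing in these arrays measures binding or allele differences in these windows.

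The arrays read as bone marrow. All 13 measured of 14 marrow markers had mean values above the medians of the arrays. Among them was Elane, the gene of neutrophil elastase, at 13.06 in the AKR cross and 12.25 in the DBA cross. Alas2 of heme synthesis in red cell precursors read 13.27 and 12.93, and Cd79a of B cells 10.63 and 9.31. These are the 3 marrow markers that passed as higher in the AKR cross in limma, as given below. Correlations over probe sets lay between 0.991 and 0.996 within groups and between 0.979 and 0.988 across them. The mean 3' minus 5' difference of the actin and Gapdh control probe sets, a measure of RNA integrity, was 0.31 to 0.89 in the AKR cross and 0.17 to 0.28 in the DBA cross, so it separated the groups. Skeletal muscle markers did so too, with a summed level of 10.84 to 12.30 (log2) in the AKR cross and 12.80 to 15.57 in the DBA cross. The part of either in the differences below was not tested. A fit with the 3' to 5' measure as a covariate is given below. As that measure separated the groups, the fit cannot tell it apart from the cross.

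Npy was high in AKR-cross marrow and low in DBA-cross marrow. Its probe set (1419127_at) read 8.62, 9.14 and 8.88 (log2) in AKR-cross replicates 1 to 3 and 4.99, 4.67 and 4.79 in DBA-cross replicates 1 to 3. Every AKR-cross array lay above every DBA-cross array, and the gap of 3.63 between the nearest arrays of the groups was 16.8 times the pooled standard deviation of 0.22. The means were 8.88 ± 0.26 and 4.82 ± 0.16 (SD, n = 3 each), a difference of 4.07 (SE 0.15 in limma). On the linear scale that is 16.8-fold. Only 2 of the 45037 probe sets had a larger difference in this direction.

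In the AKR cross the Npy probe set stood at the 88.2 percentile of all probe sets (the median array), and in the DBA cross at the 44.4 percentile, below the median of all 3 arrays. The 12 probe sets of 5 Y-linked genes, whose transcripts female mice lack, give a reading of background between 2.44 and 5.76, with a median of 3.07. The DBA-cross values of Npy lay above all of these but 1, an Sry probe set of the type that can cross-hybridise. No detection calls were used here, so whether Npy RNA was present in DBA-cross marrow at all is not settled, and if it was not, the fold is an underestimate. Npy has only this probe set, and sequence variants of the parental strains under its probes were not analysed here. With the 3' to 5' measure as a covariate the difference was 3.78 (SE 0.19).

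Counted by the limma threshold of an adjusted p under 0.05 over all probe sets, 2 of the 10 probe sets passed, that of Npy upward and 1 of Dpp4 downward, where 12.3% of all probe sets passed, 5.57% upward and 6.73% downward. The groups did not overlap in 3 of the 10, where this held for 33% of all probe sets. Since the same contrast led to the choice of these genes, nothing is read from these counts.

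**Figure D1:**
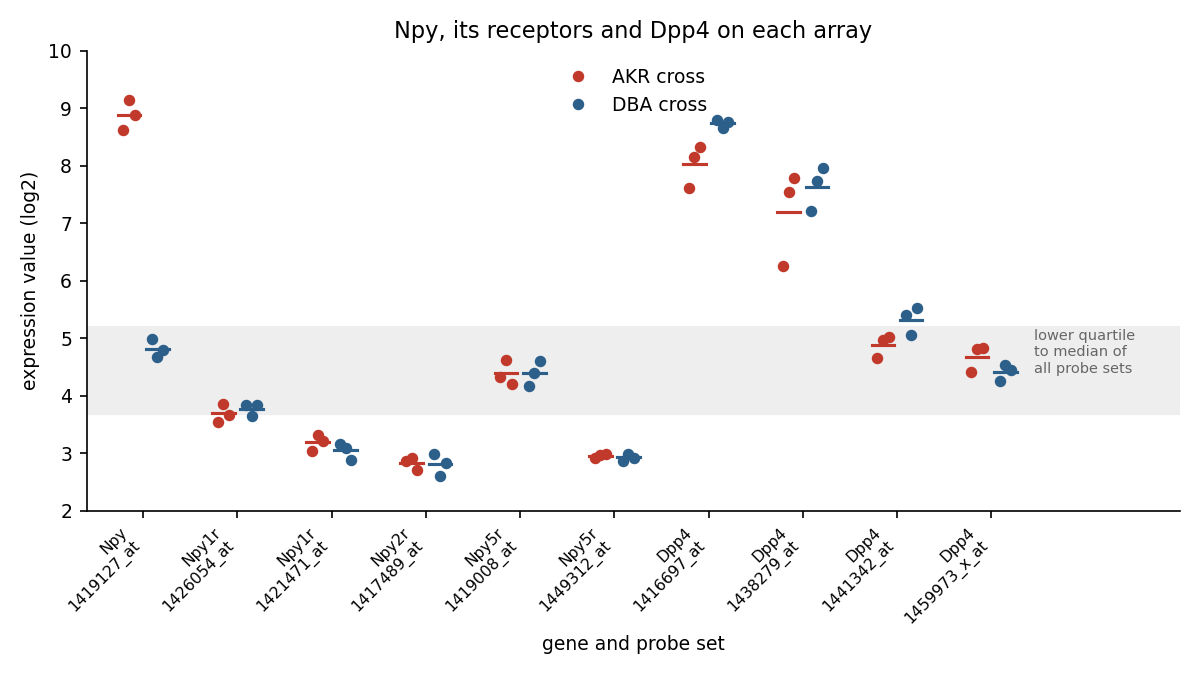
Expression values (log2, vertical axis) of the 10 probe sets of Npy, its receptors and Dpp4 (horizontal axis), with a point for each of the 3 AKR-cross and 3 DBA-cross arrays and a line at each group mean. Grey marks the band from the lowest lower quartile to the highest median of the arrays. Npy lies at 8.62 to 9.14 in the AKR cross and at 4.67 to 4.99 in the DBA cross, while the 5 receptor probe sets lie between 2.61 and 4.62 in both groups.

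The receptor genes read low in both crosses. All 30 values of their 5 probe sets lay between 2.61 and 4.62, below the median of every array, and 3 of the 5 probe sets were below the lower quartile on all 6 arrays. The groups overlapped at each of the 5.

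Npy1r encodes the Y1 receptor, through which neuropeptide Y constricts blood vessels. Its brighter probe set (1426054_at) read 3.54, 3.86 and 3.67 in the AKR cross and 3.84, 3.65 and 3.83 in the DBA cross, a difference of -0.08 (SE 0.11). The other (1421471_at) read 3.03, 3.31 and 3.22 against 3.16, 3.09 and 2.88, a difference of 0.14 (SE 0.12). The groups are interleaved in both, and the signs are opposite.

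Npy2r encodes the Y2 receptor, which sits on nerve endings and restrains further release of the peptide. It read 2.87, 2.91 and 2.70 in the AKR cross and 2.98, 2.61 and 2.83 in the DBA cross (1417489_at), and the highest and the lowest array were both of the DBA cross. The difference was 0.02 (SE 0.12).

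Npy5r encodes the Y5 receptor, known for its part in feeding. Its gene neighbours Npy1r on chromosome 8. The brighter probe set (1419008_at) read 4.33, 4.62 and 4.20 in the AKR cross and 4.16, 4.39 and 4.61 in the DBA cross, with means that differed by -0.002 (SE 0.15). The dimmer (1449312_at) stayed between 2.87 and 2.99 on all arrays. On every array the brighter one lay above all Y-linked probe sets but 1 of Sry, since the others reached no more than 3.67. The other 4 receptor probe sets read from 2.61 to 3.86, within or close to the range of the Y-linked readings, where values carry little information about transcript level.

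The 4 probe sets of Dpp4 were uneven. The brightest (1416697_at) read 7.61, 8.15 and 8.32 in the AKR cross and 8.79, 8.66 and 8.76 in the DBA cross. All AKR-cross arrays lay below all DBA-cross arrays, by a gap of 0.34, and the AKR-cross arrays were more spread. The means were 8.03 ± 0.37 and 8.74 ± 0.07 (SD, n = 3 each), a difference of -0.71 (SE 0.17), or 1.63-fold higher in the DBA cross. Without 1 array that difference ranged from -0.85 to -0.50. The call of this probe set was lost in some of these fits, and nothing is read from it. With the 3' to 5' covariate the difference was -1.12 (SE 0.19).

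The other Dpp4 probe sets differed by less in the fit of all arrays without a covariate. The second (1438279_at) read 6.26, 7.55 and 7.78 in the AKR cross and 7.22, 7.73 and 7.96 in the DBA cross, with overlapping groups and a difference of -0.44 (SE 0.37). Without AKR-cross replicate 1 that difference was 0.03, and with the 3' to 5' covariate it was -1.51. The next (1441342_at) read 4.65, 4.97 and 5.01 against 5.39, 5.05 and 5.52. Its groups did not overlap, but the gap was only 0.03 and the difference -0.44 (SE 0.15). The last (1459973_x_at), whose suffix marks probes that can bind other transcripts, read 4.40, 4.80 and 4.83 against 4.26, 4.54 and 4.45 and differed the other way, by 0.26 (SE 0.14). AKR-cross replicate 1 was the lowest AKR-cross array at each of the 4 probe sets. The mean of all 4 differed by -0.33.

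**Figure D2:**
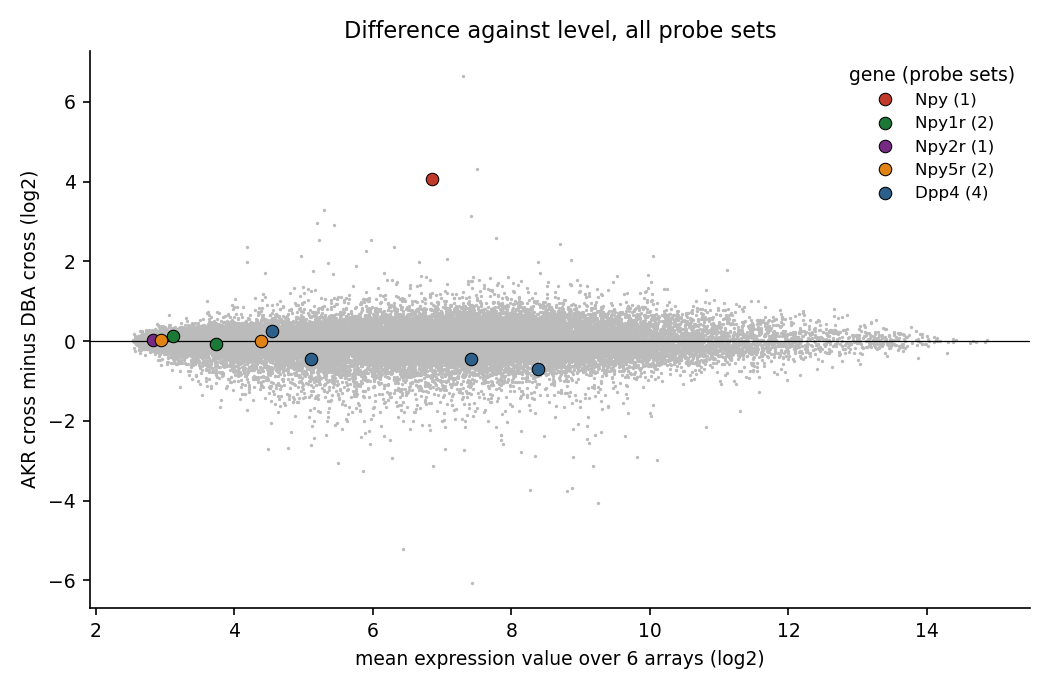
Difference AKR cross minus DBA cross (log2, vertical axis) against the mean expression value over the 6 arrays (log2, horizontal axis) for all 45037 probe sets (grey), with the 10 probe sets of the 5 genes in colour. Npy stands at 4.07, the 5 receptor probe sets lie between -0.08 and 0.14 at the dim end, and the 4 Dpp4 probe sets run from -0.71 to 0.26.

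Around these genes, 33 of 42 listed genes of the neuropeptide Y pathway were measured, each from its brightest probe set. In limma's fit over 18193 genes, 2 were higher in the AKR cross, 3 were lower and 28 did not pass, where 15.2% of all genes passed (9.2% higher and 6.04% lower). The median difference was -5.6e-05 over the 33 and 0.06 over all genes. The calls lay in peptidases, in the coupling of receptors to G proteins and arrestins, and in monoamine transport, and none lay in ligands, receptors or peptide processing. Without AKR-cross replicate 2 the count of 5 became 3, without AKR-cross replicate 3 it became 2 and without DBA-cross replicate 1 it became 8. With the 3' to 5' covariate, which left 26 of all genes past the threshold, it was 0, and 7 had an unadjusted p under 0.05.

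The related ligands and receptors read as low as the receptors above. Pyy and Ppy encode peptide YY and pancreatic polypeptide of gut and pancreas. Pyy was at 3.75 in both groups, and Ppy differed by 0.25 (SE 0.10, adjusted p = 0.14 in limma). Npy6r differed by 0.03 (SE 0.12), and Npy4r, the receptor of pancreatic polypeptide, was at 4.24 in both groups. All 4 genes lay below the median on every array, and 1 of them, Ppy, had an unadjusted p under 0.05.

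Of 8 measured genes that cut, amidate or store peptide hormones, none passed in limma, none had an unadjusted p under 0.05 and 7 lay below the median on every array. Pcsk1, a convertase that cleaves prohormones, was at 4.78 ± 0.06 in the AKR cross and 4.57 ± 0.12 in the DBA cross (SD, n = 3 each, adjusted p = 0.18 in limma). Chgb, which encodes the granule protein chromogranin B, was at 3.57 and 3.75 (adjusted p = 0.22 in limma). The exception in level was Cpe, carboxypeptidase E, at 9.56 ± 0.29 and 9.88 ± 0.48, with overlapping groups.

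Among 8 peptidases, which include the relatives of Dpp4, 1 was higher and 1 lower. Dpp9, a cytosolic enzyme of the Dpp4 family, read 8.49 ± 0.06 in the AKR cross and 7.84 ± 0.19 in the DBA cross, which differ by 0.65 (SE 0.11, limma adjusted p = 0.01). Mme, which encodes neprilysin, a surface peptidase that degrades neuropeptide Y and is also the lymphoid antigen CD10, read 7.25 ± 0.05 against 7.96 ± 0.24 and fell by 0.72 on the log2 scale (SE 0.12, adjusted p = 0.01 in limma). Its groups did not overlap, and its dimmer probe set differed by -0.70 without passing (adjusted p = 0.062 in limma). Fap, the membrane-bound relative nearest to Dpp4 in sequence, differed by -0.40 (SE 0.18) and Dpp7 by 0.46 (SE 0.17), and neither passed. Dpp8, close to Dpp9, differed by -0.01 in its brightest probe set, while another was higher by 0.46 (limma adjusted p = 0.021). Dpp9 lost its call without AKR-cross replicate 2 and Mme without AKR-cross replicate 3 (adjusted p = 0.051 for each in limma).

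Of 7 measured genes of inhibitory G proteins and arrestins, 1 was higher and 1 lower. Arrb1, which encodes beta-arrestin 1, a protein that uncouples activated receptors, read 10.56 ± 0.09 in the AKR cross and 9.92 ± 0.14 in the DBA cross (difference 0.63, SE 0.10, adjusted p = 0.0085 in limma). Gnai3, an inhibitory G protein alpha chain, read 9.86 ± 0.13 against 10.40 ± 0.05 (difference -0.54, SE 0.10, adjusted p = 0.012 in limma), and its second probe set differed by -0.57 and passed as well. Gnai3 lost its call without AKR-cross replicate 2 or 3 (adjusted p = 0.058 and 0.057 in limma). Arrb2 and Gnai2 differed by 0.41 and 0.25 and did not pass.

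Genes of the sympathetic transmitter were represented by 6 of 13. Slc18a2, which encodes the vesicular monoamine transporter 2 of sympathetic nerves, platelets and mast cells, read 6.12 ± 0.24 in the AKR cross and 6.95 ± 0.27 in the DBA cross (difference -0.83, SE 0.16, adjusted p = 0.015 in limma) and lost its call without AKR-cross replicate 3. Th and Dbh, the enzymes that make noradrenaline, differed by -0.003 and -0.002 (SE 0.12 and 0.10). Ddc and Ngfr differed by -0.27 and 0.16 and did not pass.

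**Figure D3:**
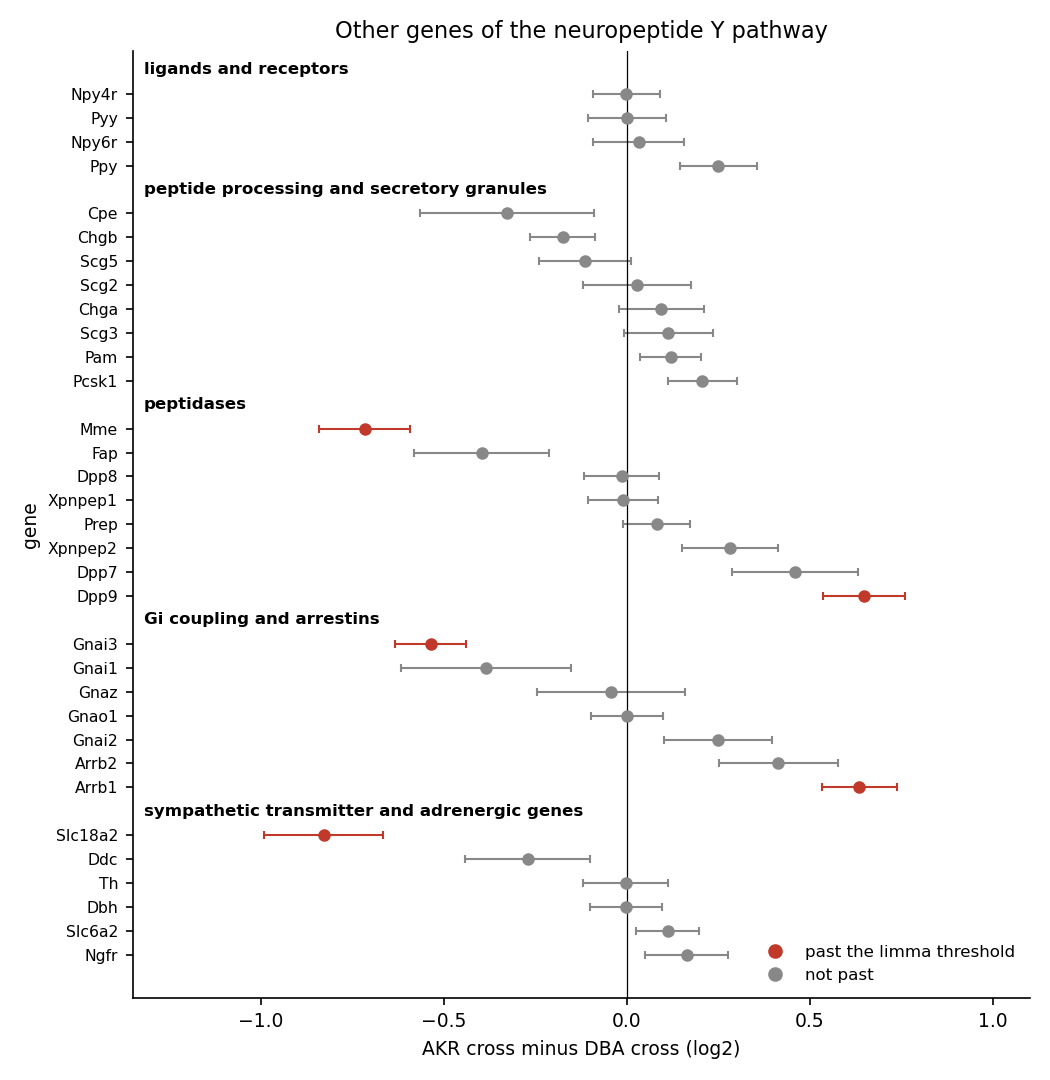
Difference AKR cross minus DBA cross (log2, horizontal axis) of the 33 measured genes of the neuropeptide Y pathway outside the 5 members (vertical axis), grouped by role, with limma's standard error as bars. Red points passed an adjusted p of 0.05 over all genes: Dpp9 and Arrb1 to the right at 0.65 and 0.63, and Slc18a2, Mme and Gnai3 to the left at -0.83, -0.72 and -0.54.

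Marrow is a mixture, so a level in a whole sample cannot tell fewer cells of a type from less RNA per cell. Markers of the cells that can carry Npy were read, and their part in its difference was not tested. By the limma threshold 9.2% of all genes were higher in the AKR cross and 6.04% lower. Of 14 measured megakaryocyte and platelet genes, 2 were higher in the AKR cross and none was lower, with a median difference of 0.05, by the brightest probe set of each gene. These were Gp9 and Gp5, chains of the platelet receptor for von Willebrand factor, at 0.59 and 0.38 (adjusted p = 0.027 and 0.043 in limma), while Gp6, the platelet collagen receptor, differed by -0.31 (adjusted p = 0.074 in limma). Selp, the gene of P-selectin, differed by -0.002 in its brightest probe set, but both of its other probe sets were lower in the AKR cross, by -1.78 and -2.60 (limma adjusted p = 0.00045 and 0.00029). Gp9 lost its call without AKR-cross replicate 2 or 3, and Gp5 in all of the fits without 1 array except that without DBA-cross replicate 2. The summed level of the list was 15.10 to 15.26 (log2) in the AKR cross and 15.07 to 15.31 in the DBA cross, so the groups overlapped. Pf4, which encodes a platelet chemokine, was at 13.03 in both groups.

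Nerve markers were also read, against a share over all genes of 9.2% higher and 6.04% lower. Of 7 measured Schwann cell genes 2 were higher, Gfap (0.51) and Pmp22 (0.33), each with an adjusted p of 0.047 in limma, and Ncam1 differed by 0.31 (adjusted p = 0.062). Another Ncam1 probe set was lower in the AKR cross, by -0.92 (limma adjusted p = 0.012), and the remaining 5 of Ncam1 did not pass. Dimmer Gfap probe sets differed by 0.25 and 0.44 and did not pass. The summed level was 10.21 to 10.27 in the AKR cross and 9.80 to 10.04 in the DBA cross, without overlap, and Cdh19 lay below the median on every array. Of 10 neuronal genes none passed in limma, 1 had an unadjusted p under 0.05 and 8 lay below the median on every array. The summed level of this list was 8.06 to 8.19 in the AKR cross and 7.89 to 8.03 in the DBA cross. Uchl1, Nefl and Nefh differed by 0.52, 0.19 and 0.12. The part of these lists in the difference of Npy was not tested.

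T cells carry Dpp4 on their surface. Of 6 measured T cell genes 2 were higher in the AKR cross and none was lower. The share over all genes was 9.2% higher and 6.04% lower. Cd3e, a chain of the T cell receptor complex, was at 7.28 ± 0.04 against 6.72 ± 0.03 (adjusted p = 0.0066 in limma), Cd4 differed by 0.38 (adjusted p = 0.023) and Cd3g by 0.24 (adjusted p = 0.15). Cd3g lay below the median on every array, and a dimmer Cd4 probe set differed by 0.05 without passing. The call of Cd4 was lost without AKR-cross replicate 1, 2 or 3 or DBA-cross replicate 2. The summed level was 10.25 to 10.41 in the AKR cross and 10.06 to 10.16 in the DBA cross. The part of T cells in the readings of Dpp4 was not tested.

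Other cell types of marrow were read from their own lists. Over all genes 9.2% were higher and 6.04% lower. Of 7 endothelial genes 3 were higher, Kdr, Tie1 and Cdh5, by 0.48, 0.63 and 0.51 (adjusted p = 0.017, 0.045 and 0.045 in limma). A dimmer Cdh5 probe set, with a mean of 3.46, differed by -0.007 without passing. Of 6 measured adipocyte genes 1 was higher, Lipe, by 0.69 (adjusted p = 0.011 in limma). Its dimmer probe set differed by -0.04, Fabp4 by -0.24 and Lep by 0.08, and none of these passed. Of 9 measured monocyte and macrophage genes 2 were higher, C1qb and C1qa, by 0.75 and 0.65 (adjusted p = 0.028 and 0.032 in limma). Mrc1 differed by -0.40 without overlap of the groups and did not pass (adjusted p = 0.058 in limma). The other C1qb probe sets differed by 0.17 and 0.29 without passing. In the same list, dimmer probe sets of Ccr2, a chemokine receptor gene (-1.74), and of the adhesion gene Vcam1 (-0.73 and -1.001) were lower in the AKR cross (limma adjusted p = 0.017, 0.045 and 0.033). The brightest probe sets of Ccr2 and Vcam1 differed by -0.50 and -0.16, and other Ccr2 probe sets by -0.007 and 0.25. None of these passed. None of 9 measured genes of osteoblasts and stroma passed in limma by the brightest probe set, and 2 had an unadjusted p under 0.05. Lepr, Ibsp and Kitl had the smallest p and differed by -0.40, -0.32 and -0.30, while the median over the 9 was 0.14. Dimmer probe sets of 3 of the 9 genes passed, in both directions. These were Col1a1 of collagen at 1.79, Ibsp of bone sialoprotein at -1.33 and Lepr of the leptin receptor at -1.10 and -0.73 (limma adjusted p = 0.0024, 0.0087, 0.02 and 0.039). Of 13 measured marrow genes 3 were higher, Elane, Alas2 and Cd79a, by 0.82, 0.35 and 1.32 (adjusted p = 0.024, 0.029 and 0.025 in limma). In the skeletal muscle list 9 of 12 were lower. Their part in the differences of Npy and Dpp4 was not tested.

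The genes that lie beside Npy on chromosome 6 did not share its difference. Its nearest measured neighbours, Stk31 and Mpp6, differed by 0.15 (SE 0.10) and -0.30 (SE 0.09), and neither passed. Among the 20 nearest, 10 on each side, differences ran from -0.77 to 0.73 with a median of -0.10. In limma 5 of them were lower in the AKR cross and 2 higher. These are 35% of the 20, where 15.2% of all genes passed, 9.2% higher and 6.04% lower. Osbpl3, an oxysterol-binding protein gene 3 places to the right, read 6.08 ± 0.21 in the AKR cross and 6.84 ± 0.11 in the DBA cross (difference -0.77, SE 0.12, adjusted p = 0.0083). Another of its probe sets differed by -0.52 and passed.

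The other lower neighbours were Tra2a (-0.56), a splicing factor gene, Cycs (-0.45), the gene of cytochrome c, Ccdc126 (-0.39) and Hnrnpa2b1 (-0.32), of an RNA-binding protein. The higher were Tmem176a (0.73) at the left edge and 5430402O13Rik (0.44), which read 4.28 and 3.84. Other probe sets of Tra2a differed by 0.13, 0.004, 0.03, -0.31 and 0.03 and did not pass. Of the other Tmem176a probe sets, that at 0.66 passed (limma adjusted p = 0.013) and that at -0.04 did not. Other Cycs probe sets passed at -0.42 and -0.55 (limma adjusted p = 0.021 and 0.0072), and that at 0.07 did not. For Hnrnpa2b1 the probe set at -0.41 passed (limma adjusted p = 0.045), and those at -0.38 and -0.33 did not. The count of 7 became 1 without AKR-cross replicate 1 or 2, 2 without AKR-cross replicate 3 or DBA-cross replicate 2, and 4 without DBA-cross replicate 3. With the 3' to 5' covariate it was 0 in limma, and 6 had an unadjusted p under 0.05.

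**Figure D4:**
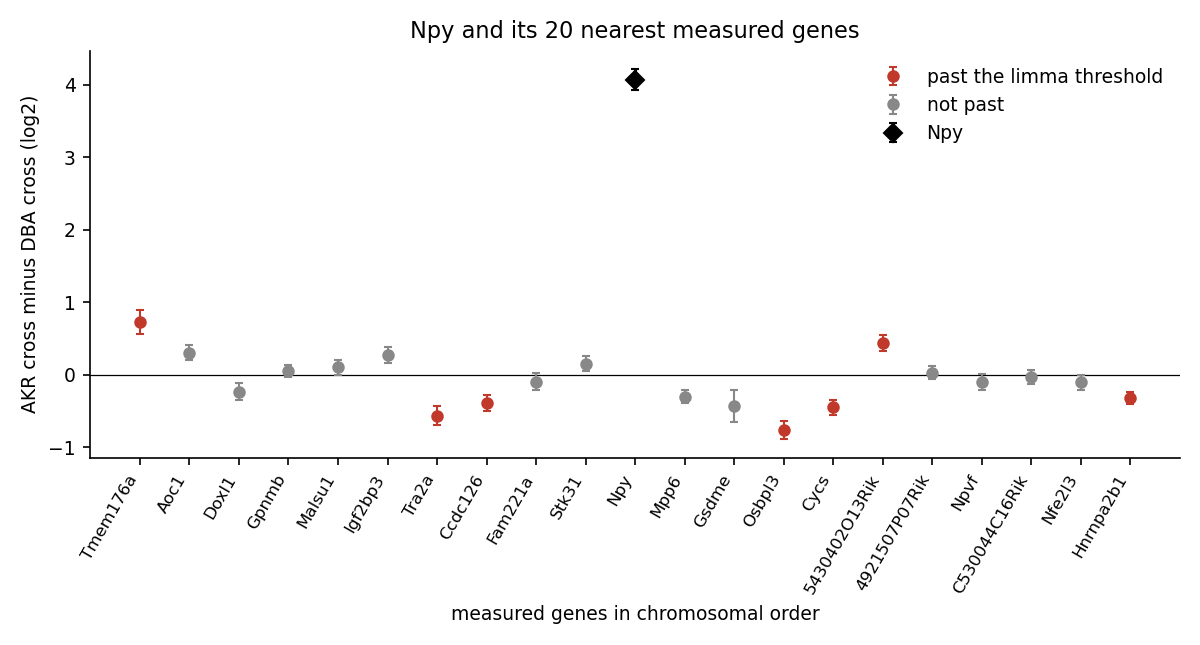
Difference AKR cross minus DBA cross (log2, vertical axis) of Npy (diamond) and its 20 nearest measured genes in chromosomal order (horizontal axis), with limma's standard error as bars. Npy stands at 4.07 while its neighbours lie between -0.77 and 0.73, 5 of them lower and 2 higher past the threshold (red).

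Neighbours of the other members were mixed. Npy1r and Npy5r share nearly all of the 19 around each, and the same 3 were higher in both and none lower. Of the 20 around Npy2r 1 was higher and 1 lower, and of the 20 around Dpp4 1 was lower. The nearest to the receptor pair, Tktl2 and Naf1, differed by 0.03 and -0.22, those of Npy2r, Map9 and Rbm46, by -0.03 each, and those of Dpp4, Slc4a10 and Gcg, by 0.06 and -0.06. Over all 80 neighbours, each counted once, 13 passed, 7 of them around Npy. That is 16.2% of the 80 against 15.2% of all genes. The count of 13 became 6, 3 and 5 without AKR-cross replicates 1, 2 and 3 and 7 without DBA-cross replicate 2.

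The genes most like Npy were sought by Pearson's r over the 6 arrays among 1278 genes whose highest and lowest array differed by at least 1 on the log2 scale. The 6 arrays form 2 groups, so r mostly restates the difference between the crosses, and 92 of these genes had r above 0.95. The 8 highest were Chtf8 (0.998), Ccar2 (0.994), Msh5 (0.994), Prss22 (0.994), Fam168a (0.992), Sdf2l1 (0.991), Ube2r2 (0.990) and Fggy (0.989). Their differences were smaller than that of Npy, from 1.02 for Msh5 to 3.13 for Prss22, which encodes a serine protease. In none of the 8 did the arrays follow the order of Npy within both groups. They lie on chromosomes 4, 7, 8, 14, 16 and 17, and none is on chromosome 6 with Npy.

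Chtf8, the first of them, encodes a part of a clamp loader of DNA replication and read 9.62, 9.82 and 9.64 in the AKR cross and 8.30, 8.30 and 8.26 in the DBA cross. As in Npy, AKR-cross replicate 2 was the highest array. For some of the 8 another probe set gave another picture. The second probe set of Msh5, a meiotic mismatch repair gene, differed by -1.16 and passed over all probe sets (limma adjusted p = 0.0042), and the mean of both differed by -0.07. Other probe sets of Fam168a differed by 0.01, 0.14 and -0.08 and that of Ube2r2 by 0.27, and none of these passed.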

How the data were processed

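Total RNA of snap-frozen marrow was extracted with Trizol, labelled with biotin and hybridised to Affymetrix arrays, per the labels' protocols. The authors deposited log2 expression values, already brought to a common scale between arrays, with medians from 5.14 to 5.19. The submitters' processing notes name MAS5 and RMA, without saying which of them made the values. Groups and replicate numbers came from the titles. Nothing says that the arrays came from separate animals, so p-values cover only the spread among these arrays, which may be technical, and 3 arrays a group limit the precision. After removal of 64 control probe sets, limma 3.58.1 (R 4.3.3) was fitted to 45037 probe sets, and again to 18193 genes by the brightest probe set with a single symbol (34945 have one), with Benjamini-Hochberg adjustment over each table and a threshold of 0.05. Symbols were updated, and gene order taken, from RefSeq genes of GRCm38.p6 by gene ID. The summed level of a list is the log2 of its summed linear values.

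The members and lists were chosen with earlier results of these data known. Named genes were all members, pathway genes past the threshold and up to 2 others per list, up to 3 markers per list by p, the 8 genes most like Npy, the neighbours of Npy past the threshold and the nearest neighbours of each member. Pyy, Npy4r, Cpe, Th, Dbh, Pf4, Cdh19, the other neuropeptide genes and genes named for a probe set other than the brightest fall outside this rule and were named after their values were seen. The fit was also run on simulated data with independent noise, which held no difference in RNA integrity or muscle between groups and so cannot speak to those. Same-numbered arrays did not deviate together (correlations 0.006, -0.06 and 0.07).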

Additional observations from a re-analysis of the deposited data

How the results depend on the processing

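The values of the 5 genes are refits of the arrays on which these genes were chosen, so they describe and do not test. Without 1 array the difference of Npy ranged from 3.94 to 4.20. Without 1 array the differences ranged from -0.85 to -0.50 for Dpp4, from -0.17 to -0.01 for Npy1r, from -0.08 to 0.11 for Npy2r and from -0.12 to 0.11 for Npy5r, so the last 2 changed sign within their error. The mean of all probe sets gave -0.33 for Dpp4. With the 3' to 5' covariate Npy, Npy1r and Dpp4 moved to 3.78, -0.26 and -1.12, and 231 probe sets, 26 genes, 0 pathway genes and 0 neighbours passed. Array weights gave 21 neighbours. At a threshold of 0.01, 1214 probe sets, 526 genes, 1 pathway gene and 3 neighbours passed, and at 0.10, 8489 probe sets and 4243 genes. Windows of 5 and 20 genes on each side gave 8 and 21 neighbours. Without 1 array the counts ranged from 1683 to 5581 probe sets, 685 to 3248 genes, 2 to 8 pathway genes and 3 to 14 neighbours. The replicate number as a block left the difference of Npy at 4.07 and that of Dpp4 at -0.71, since the groups are balanced, and 5 pathway genes passed. The number is not known to pair the samples. The mean of both Msh5 probe sets turned its difference to -0.072. The cause of these shifts was not tested, beyond the fewer arrays in each fit without 1. Of the 5 receptor probe sets 4 read near background, which limits what can be seen of them.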

Other observations

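Other neuropeptide genes showed no difference like that of Npy. Of 10 listed 8 were measured. None passed limma's threshold, where 15.2% of all genes did, and 1 of the 8 had an unadjusted p under 0.05. Pomc, the precursor of the melanocortins and beta-endorphin, had the smallest p, with means of 5.75 ± 0.12 in the AKR cross and 5.51 ± 0.06 in the DBA cross (SD, n = 3 each, difference 0.24, SE 0.10, adjusted p = 0.13 in limma). Penk, which encodes the enkephalin precursor, was at 5.14 and 5.20. Vip, Tac1, Gal, Cartpt, Sst and Nts lay below the median on every array, with differences from -0.10 for Sst to 0.20 for Nts. The median over the 8 genes was 0.04, and 6 of them lay below the median on all arrays.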
